A study of Mus musculus with 3 samples.

Results

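The MHC class I presentation pathway was followed through 10 genes. These were the heavy chains H2-K1 and H2-D1, the light chain B2m, the peptide transporter subunits Tap1 and Tap2, the loading factor Tapbp, the regulator Nlrc5, and the immunoproteasome subunits Psmb8, Psmb9 and Psmb10. They were found by symbol, and all 10 were among the 32285 genes of the count matrices. Single-cell RNA-seq had been made from mouse flexor digitorum longus (FDL) tendons, with 1 library per group and 16 tendons of both sexes pooled in each. The 6 M WT library came from Scx-Cre-; DTR F/+ mice, which carry a silent diphtheria toxin receptor (DTR) and no Cre and were given 5 daily injections of diphtheria toxin (DT). Littermates with Scx-Cre and the same receptor allele and DT gave the 6 M DTR library. In them Cre under the promoter of the tendon gene Scx switches the receptor on, so the toxin kills cells of the Scx lineage. Untreated C57/Bl6 mice gave the 21 M B6 library. The strain label is C57BL/6J for every library. The labels of both young libraries give an age of 3 months, which in the study's methods is the age at injection, with harvest 3 months later.

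Tendons of 6 M WT mice were digested for longer than the rest, and 21 M B6 mice also differ from 6 M WT mice in genotype and in having had no DT. Age or depletion cannot be told apart from these differences. With 1 library per group no difference between groups could be tested. All intervals below are 95% intervals that cover counting error only, not the spread between animals or preparations. Apart from those for shares of cells, they also leave out the spread between cells, so they are too narrow to that extent. Both comparisons with 6 M WT share that one library. Where 3 values follow each other, they are for 6 M WT first, 6 M DTR second and 21 M B6 last.

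MHC class I molecules display short peptides from proteins made inside the cell to cytotoxic T cells. The proteasome cuts these peptides, and in cells exposed to interferon its catalytic subunits Psmb5, Psmb6 and Psmb7 are exchanged for Psmb8, Psmb9 and Psmb10. Tap1 and Tap2 form the pump that carries peptides into the endoplasmic reticulum. There Tapbp (tapasin) holds the pump beside an empty heavy chain bound to B2m until a peptide is loaded. Nlrc5 is a transactivator of class I genes that acts through a conserved promoter module. Most nucleated cells carry some class I on their surface.

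The stretches upstream of H2-K1, H2-D1 and B2m are shown because the levels of these 3 genes differed between libraries in unlike ways although their promoters share a module. The stretch between Psmb9 and Tap1 is shown because both genes start from it, in opposite directions. Windows of 250 bases before each start came from RefSeq on GRCm38.p6 and were found for 8 of the 10 genes, all but Nlrc5 and Tap2. Capitals mark matches on either strand to GGGANTNNC (NF-kB type, in 11.7% of all 32851 windows), AANNGAAA (interferon response type, 21.3%), TGACG (cyclic AMP response type, 17.8%) and CCAAT (Y box, 33.8%). H2-K1 is read on the minus strand at chr17:34000334-34000513, up to the more downstream of its 2 annotated starts. H2-D1 is read on the plus strand at chr17:35262914-35263093 and B2m on the plus strand at chr2:122147507-122147686. The last stretch is the plus strand of chr17:34187331-34187555 and ends at the base before the start of Tap1.
H2-K1: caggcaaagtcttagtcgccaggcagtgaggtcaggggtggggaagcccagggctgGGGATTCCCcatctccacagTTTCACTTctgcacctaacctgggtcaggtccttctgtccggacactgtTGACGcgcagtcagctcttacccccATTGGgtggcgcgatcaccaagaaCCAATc
H2-D1: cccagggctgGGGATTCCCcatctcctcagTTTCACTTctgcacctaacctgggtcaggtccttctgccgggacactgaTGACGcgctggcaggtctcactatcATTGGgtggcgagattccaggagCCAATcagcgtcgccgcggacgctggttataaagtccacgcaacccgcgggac
B2m: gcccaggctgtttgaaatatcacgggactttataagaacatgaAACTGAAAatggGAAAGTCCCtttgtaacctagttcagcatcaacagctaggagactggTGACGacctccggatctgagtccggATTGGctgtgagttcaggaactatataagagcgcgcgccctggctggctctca
Psmb9 to Tap1: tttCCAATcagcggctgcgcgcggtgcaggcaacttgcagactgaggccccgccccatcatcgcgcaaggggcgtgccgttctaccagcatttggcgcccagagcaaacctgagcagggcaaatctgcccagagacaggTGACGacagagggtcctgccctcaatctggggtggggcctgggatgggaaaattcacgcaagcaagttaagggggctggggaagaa

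Matches of the NF-kB type and of the interferon response type were each found for 3 of the 8 genes, H2-K1, H2-D1 and B2m. The NF-kB type match comes first in H2-K1 and H2-D1 and second in B2m. In all 3, TGACG is followed by ATTGG, the Y box read on the other strand, with 25 bases from the first letter of one to the first letter of the other. The same pair at that distance, in either orientation, was in 30 of the 32851 windows (0.0913%), which belong to 26 gene symbols. The distance was taken from these genes, and the 26 include all 3 of them, so their own place in the count was set in advance. The 99 bases from the NF-kB type match to this Y box were 88.9% identical between H2-K1 and H2-D1. TGACG was also found for Tap1 and Psmb9, in the stretch they share. The windows of Psmb8 and Psmb10 held none of the 4 motifs. A match describes letters and is not a bound site.

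After cells were limited to 1000 to 5000 genes and 10% mitochondrial counts, 8357, 6554 and 4798 cells were left, with a median of 12328 to 13008 UMIs (unique molecules counted) per cell. Marker gates put 85.4% to 87.2% of them into 1 of 8 classes. Between 219 and 282 cells per library that passed several gates were left out. Cells of other classes with just 3 epitenon markers, which is also the epitenon minimum, were kept in their class. Tenocyte-like cells numbered 5121, 2631 and 832, epitenon-like cells 1108, 1082 and 2500, macrophage-like cells 531, 1079 and 487, T or NK cell-like cells 124, 315 and 82 and endothelial-like cells 146, 147 and 105. All 10 tenocyte, 9 epitenon, 8 macrophage, 10 T or NK cell and 10 endothelial markers were highest in their own class in each library. Gating on these same markers largely sets that outcome, so it is not separate evidence of what the cells are. The smaller classes were mural-like (142, 195 and 35 cells), nerve-like (73, 91 and 48) and muscle satellite-like (42, 54 and 75). The mural marker Cspg4 was at 78.3, 74.0 and 67.2 CPM in mural-like cells and higher in another class, at 207, 173 and 98.7 CPM. Of the tenocyte-like cells, 741, 431 and 177 had just the number of markers asked for. Between 13 and 15 cell barcodes were shared by any pair of libraries.

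The level of a gene is given as its UMIs per 1000000 UMIs of all genes (CPM), summed over the cells of a class. In 6 M WT tenocyte-like cells the class I molecule was abundant and its inducible machinery was scarce. H2-D1 was at 905 CPM (898 to 912), B2m at 476 CPM (471 to 481) and H2-K1 at 265 CPM (261 to 269), which are ranks 166, 275 and 483 among all genes. Tapbp was at 134 CPM (131 to 137), above both transporter subunits, with Tap2 at 27.6 CPM (26.4 to 28.9) and Tap1 at 13.9 CPM (13.1 to 14.9). Of the immunoproteasome, Psmb10 was at 15.8 CPM (14.8 to 16.7), Psmb8 at 7.13 CPM (6.51 to 7.78) and Psmb9 at 2.24 CPM (1.90 to 2.62). Nlrc5 was lowest, at 1.54 CPM (1.26 to 1.86). The libraries count 3' ends, so a level does not scale with transcript length. H2-K1, H2-D1 and the H2-Q genes are near copies of each other, so reads may have been assigned to the wrong one or left out, and their separate levels are uncertain to that extent.

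**Figure D1:**
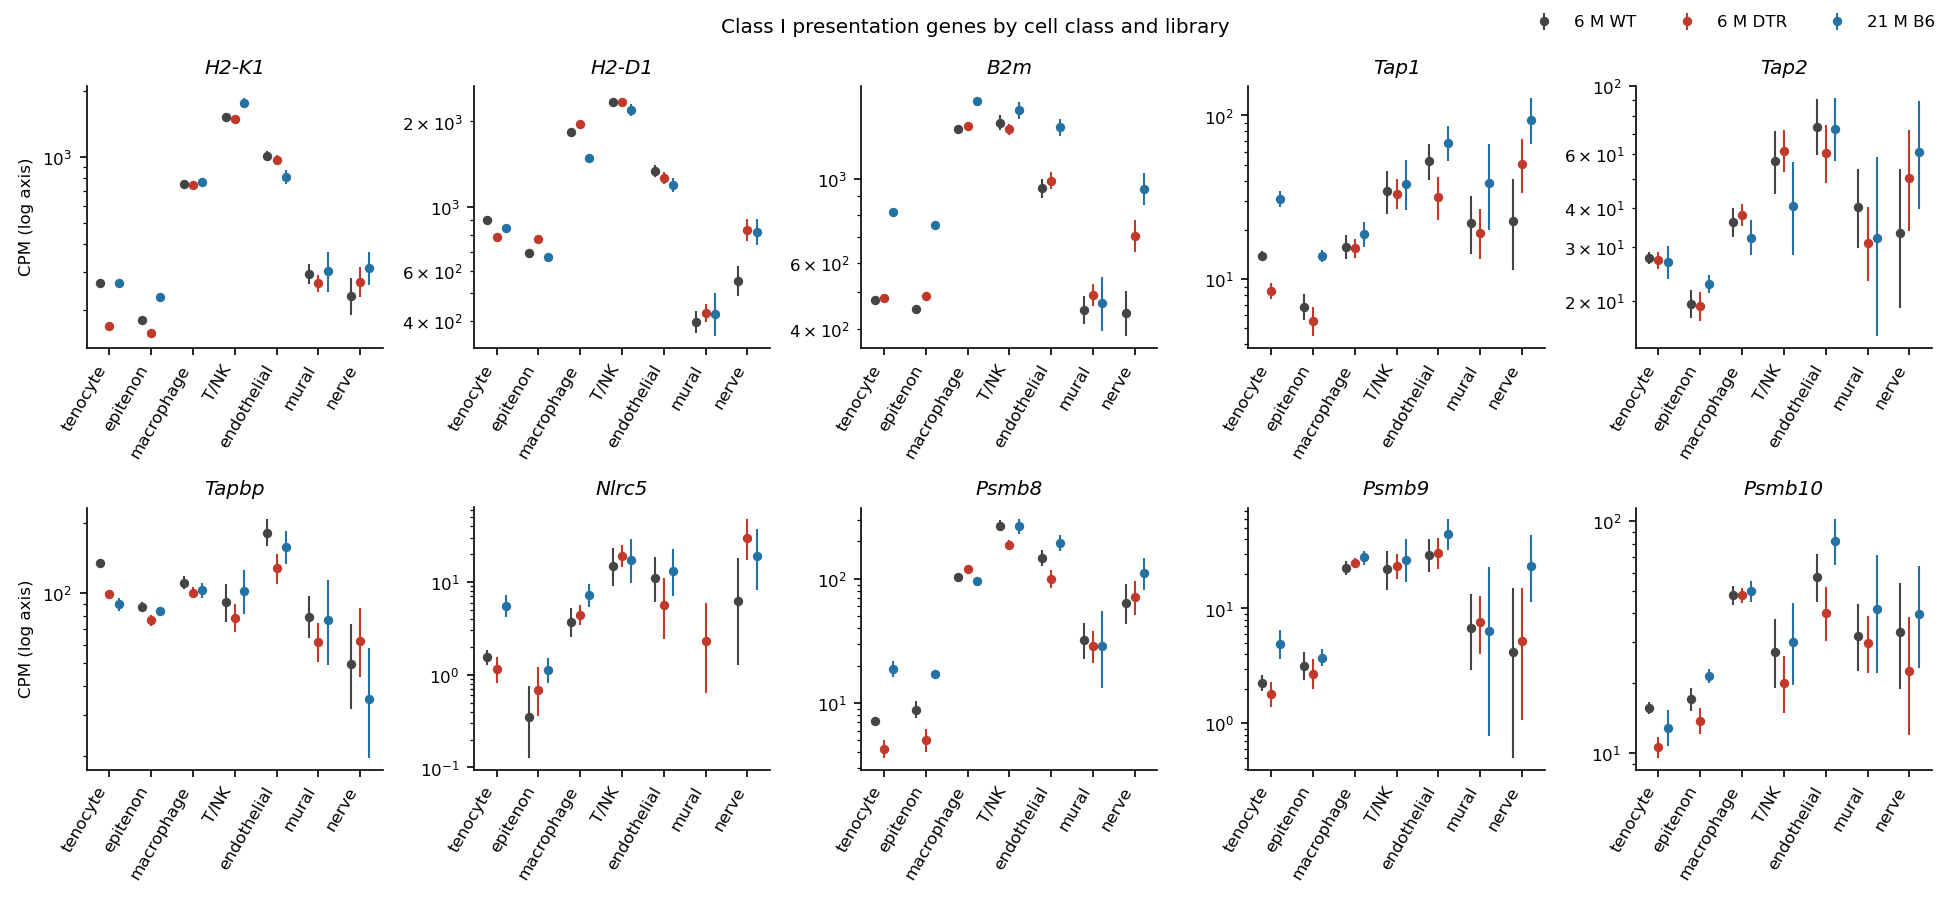
Level of each of the 10 genes (CPM, log axis, its own range in each panel) in 7 cell classes and 3 libraries; bars are exact Poisson 95% intervals for counting error, and no point is drawn where the count was 0 (Nlrc5 in mural-like cells of 6 M WT and 21 M B6). Psmb8 ranges from 7.13 CPM in tenocyte-like to 269 CPM in T or NK cell-like cells of 6 M WT.

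Classes differed more in Psmb8 than in the class I molecule. In 6 M WT, Psmb8 was at 269 CPM (241 to 298) in T or NK cell-like, 148 CPM (127 to 171) in endothelial-like and 103 CPM (96.6 to 110.0) in macrophage-like cells. Over tenocyte-like cells these are ratios of 37.7 (32.7 to 43.3), 20.7 (17.4 to 24.6) and 14.5 (12.98 to 16.2). For Psmb9 the ratio was 13.1 (8.92 to 18.9) in endothelial-like and 10.1 (8.11 to 12.5) in macrophage-like cells. The heavy chains differed less. H2-K1 was at 1518 CPM in T or NK cell-like cells, a ratio of 5.73 (5.47 to 6.00), and H2-D1 at 2333 CPM, a ratio of 2.58 (2.48 to 2.67). B2m was at 1411 CPM in T or NK cell-like, 1353 CPM in macrophage-like and 945 CPM in endothelial-like cells, all above the tenocyte-like level. Tap1 and Tap2 were highest in endothelial-like cells among the 5 larger classes, at 52.4 CPM (40.5 to 66.7) and 73.8 CPM (59.6 to 90.5). Macrophage-like cells, which also present antigen on class II, had Tap1 at 15.7 CPM (13.2 to 18.6), an interval that overlaps the tenocyte-like one. Tapbp was at 182 CPM in endothelial-like cells, above the tenocyte-like level, but at 111 CPM in macrophage-like and 91.3 CPM (75.5 to 109) in T or NK cell-like cells, both under it.

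At least 1.5-fold above tenocyte-like cells of 6 M WT were 7 of the 10 genes in macrophage-like cells, where 31.2% of genes with at least 20 CPM in either class were. The count was 9 in T or NK cell-like cells beside 41.4% of genes, and 8 in endothelial-like cells beside 34.9%. Median log2 ratios of the 10 genes were 1.38, 1.47 and 1.88 in these classes, and those of all such genes 0.09, 0.37 and 0.26. Scaling by TMM factors lowers the T or NK cell-like and endothelial-like log2 ratios by 0.51 and 0.37. Of genes with at least 20 CPM 7.62% were at least 1.5-fold lower in epitenon-like than in tenocyte-like cells, and 11.4% of those with at least 1 CPM. Of the 10 genes 3 were. These were Tap1 at 6.77 CPM, Tapbp at 87.3 CPM and Nlrc5 at 0.347 CPM, the last from 6 UMIs.

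Markers of macrophage-like, T or NK cell-like and endothelial-like cells were present in tenocyte-like and epitenon-like cells, summed over each list, at 0.0326% to 0.271% of the level in their own class. The levels of the 10 genes in those 3 classes, multiplied by these shares, came to 0.34% to 14.3% of their levels in tenocyte-like and epitenon-like cells. The highest value was for Psmb8 in epitenon-like cells of 6 M DTR. Cells that passed the gate of another class had been left out before, and mural-like and other small classes were not counted, so these shares can be too low.

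For shares of cells with a UMI, each cell was thinned to 2000 UMIs, which left out 9, 5 and 1 of the kept cells. In tenocyte-like cells H2-K1 then had a UMI in 36.9% (35.6 to 38.3), 26.9% (25.2 to 28.6) and 35.1% (31.9 to 38.4). The middle share, of 6 M DTR, is below the outer ones, whose intervals overlap. B2m had a UMI in 56.5% (55.1 to 57.8), 59.2% (57.3 to 61.1) and 71.3% (68.1 to 74.3), highest in 21 M B6. Psmb8 had one in 1.41% (1.10 to 1.77), 1.10% (0.739 to 1.58) and 4.33% (3.05 to 5.94). Before thinning the shares were 86.4%, 77.2% and 83.3% for H2-K1, 96.7%, 97.7% and 98.1% for B2m and 7.17%, 5.32% and 16.8% for Psmb8. Thinned shares of H2-K1 were 71.9%, 71.8% and 69.6% in macrophage-like and 88.7%, 90.5% and 92.7% in T or NK cell-like cells. No class here is known to lack class I, so there was no class to serve as background for free RNA.

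After depletion of the Scx lineage, the tenocyte-like cells that were present had lower H2-K1, Tap1 and Psmb8 than those of 6 M WT, and a similar level of B2m. H2-K1 was at 265 CPM in 6 M WT against 169 CPM (164 to 173) in 6 M DTR, a ratio of 0.637 (0.618 to 0.656). H2-D1, at 905 against 787 CPM, had a ratio of 0.869 (0.857 to 0.881). B2m, at 476 against 482 CPM, had one of 1.01 (0.995 to 1.03). Both heavy chains were thus lower and the light chain was not. Of the transport and loading genes, Tap1 was at 13.9 against 8.49 CPM, a ratio of 0.608 (0.532 to 0.694), and Tapbp at 134 against 99.3 CPM, a ratio of 0.740 (0.712 to 0.770). Tap2, whose product works as a pair with that of Tap1, was at 27.6 against 27.1 CPM, a ratio of 0.983 (0.908 to 1.06). Psmb8 was at 7.13 against 4.29 CPM, a ratio of 0.602 (0.498 to 0.724), and Psmb10 at 15.8 against 10.6 CPM, a ratio of 0.675 (0.598 to 0.760). For Psmb9, with a ratio of 0.805 (0.591 to 1.09), and Nlrc5, with 0.741 (0.502 to 1.07), a difference was not detectable at this depth.

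H2-K1, Tap1 and Psmb8 make 3 of 10 genes at least 1.5-fold lower, and none was as much higher (5.94% of genes with at least 20 CPM were). Among all genes, 6.12% of those with at least 20 CPM in either library were that much lower, a level that 5 of the 10 reached, and 7.12% of those with at least 1 CPM. The median log2 ratio was -0.43 over the 10 genes and 0.01 over all genes with at least 20 CPM. Scaling by TMM factors lowers each log2 ratio of this comparison by 0.10, which turns B2m from 0.02 to -0.08. Red cell markers summed to 1221, 4853 and 1210.5 CPM in tenocyte-like cells, highest in 6 M DTR, and the 4 neutrophil markers to 38.1, 0.686 and 0.3004 CPM, highest in 6 M WT. The 5 muscle fibre markers summed to 38.0, 90.2 and 153 CPM, lowest in 6 M WT. The part of these cells in the ratios of 6 M DTR and 21 M B6 to 6 M WT was not tested.

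In epitenon-like cells fewer of the 10 genes were past 1.5-fold lower, with H2-K1 nearer to 6 M WT and Psmb8 again below it. Psmb8, at 8.86 against 5.01 CPM, had a ratio of 0.566 (0.430 to 0.741), which in male cells alone was 1.12 (0.655 to 1.96). It was the 1 gene of the 10 that was at least 1.5-fold lower, where 2.85% of genes with at least 20 CPM and 7.32% of those with at least 1 CPM were. Nlrc5, from 6 and 12 UMIs, was higher by more than that, with a ratio of 1.99 (0.692 to 6.47) whose interval includes 1. At least 1.5-fold higher were 1.21% of genes with at least 20 CPM and 4.89% of those with at least 1 CPM. H2-K1 had a ratio of 0.875 (0.831 to 0.921), H2-D1 one of 1.12 (1.09 to 1.15) and B2m one of 1.08 (1.05 to 1.12). The heavy chains thus went opposite ways over all cells of the class. In male cells alone they did not, with H2-K1 at 1.09 (0.997 to 1.19) and H2-D1 at 1.13 (1.09 to 1.18). The median log2 ratio of the 10 was -0.19, beside 0.01 for all genes. Red cell markers summed to 2034, 3230.3 and 823 CPM in this class, neutrophil markers to 10.2, 0.115 and 0.269 CPM and muscle fibre markers to 23.2, 83.4 and 96.1 CPM, and their part was not tested.

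Tenocyte-like cells of 21 M B6 had more B2m, Tap1, Nlrc5, Psmb8 and Psmb9 than those of 6 M WT, with heavy chain levels close to it. B2m was at 476 CPM in 6 M WT against 816 CPM (798 to 834) here, a ratio of 1.71 (1.67 to 1.76). H2-K1, at 265 against 267 CPM, had a ratio of 1.01 (0.967 to 1.05), and H2-D1, at 905 against 850.0 CPM, one of 0.939 (0.918 to 0.961). Of the class I molecule, only the light chain was past 1.5-fold. Tap1 was at 13.9 against 30.8 CPM, a ratio of 2.21 (1.94 to 2.52), while Tap2, at 27.6 against 26.7 CPM, had a ratio of 0.968 (0.848 to 1.10). Tapbp was lower, at 134 against 89.6 CPM, a ratio of 0.668 (0.623 to 0.716), just inside 1.5-fold. Psmb8 was at 7.13 against 18.9 CPM, a ratio of 2.66 (2.23 to 3.15), and Psmb9 at 2.24 against 4.91 CPM, a ratio of 2.19 (1.56 to 3.04). Psmb10, the other inducible subunit, was at 15.8 against 12.9 CPM, a ratio of 0.820 (0.678 to 0.985). Nlrc5 had the largest ratio of the 10, 3.57 (2.53 to 4.98), from 107 UMIs in 6 M WT and 55 in 21 M B6.

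These 5 genes were at least 1.5-fold higher, where 6.5% of genes with at least 20 CPM were, a level that 6 of the 10 reached, and 8.32% of genes with at least 1 CPM. The median log2 ratio of the 10 was 0.39 and that of all genes -0.26. Scaling by TMM factors in place of totals raises each log2 ratio of this comparison by 0.23, which turns H2-D1 from -0.09 to 0.14 and Tap2 from -0.05 to 0.18.

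Epitenon-like cells of 21 M B6 differed from 6 M WT in much of the same set. B2m, at 453 against 756 CPM, had a ratio of 1.67 (1.63 to 1.71), Tap1, at 6.77 against 13.9 CPM, one of 2.05 (1.67 to 2.53), and Psmb8, at 8.86 against 17.1 CPM, one of 1.93 (1.62 to 2.32). Nlrc5 had a ratio of 3.25 (1.37 to 9.35) from 6 and 42 UMIs. These are the 4 genes at least 1.5-fold higher, beside 4.31% of genes with at least 20 CPM and 5.78% of those with at least 1 CPM. H2-K1, at 181 against 231 CPM, had a ratio of 1.28 (1.23 to 1.33), and H2-D1 one of 0.969 (0.948 to 0.991). For Psmb9, with a ratio of 1.17 (0.852 to 1.63), a difference was not detectable at this depth. The median log2 ratio of the 10 was 0.34, beside -0.26 for all genes. TMM factors raise each log2 ratio here by 0.29, which turns H2-D1 from -0.05 to 0.25 and Tapbp from -0.06 to 0.24.

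**Figure D2:**
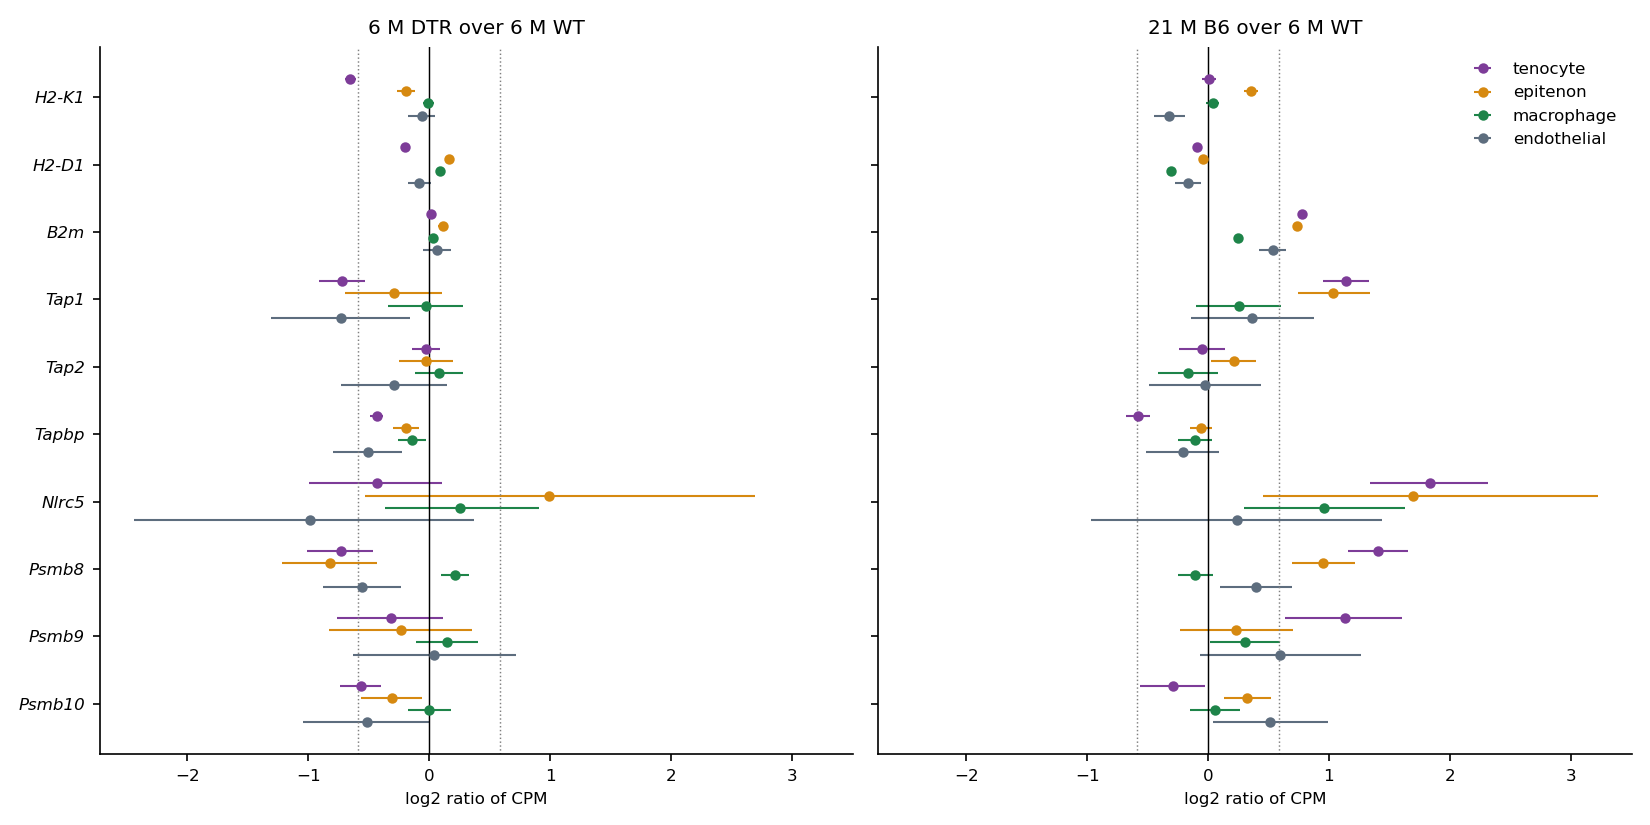
Log2 ratio of CPM to 6 M WT for each gene in 4 cell classes, for 6 M DTR (left) and 21 M B6 (right); bars are exact 95% intervals for counting error and dotted lines mark 1.5-fold. On the right B2m, Tap1, Nlrc5, Psmb8 and Psmb9 of tenocyte-like cells lie past the upper dotted line, and on the left H2-K1, Tap1 and Psmb8 of the same class lie past the lower one.

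The number of B2m UMIs per UMI of H2-K1 and H2-D1 together does not depend on how libraries are scaled. In tenocyte-like cells it was 0.407, 0.505 and 0.731, so that 6 M DTR was at 1.24 (1.22 to 1.26) times and 21 M B6 at 1.80 (1.76 to 1.84) times the 6 M WT value. Epitenon-like cells had 0.520, 0.526 and 0.841, macrophage-like cells 0.522, 0.509 and 0.711 and endothelial-like cells 0.401, 0.441 and 0.683. For 21 M B6 these are 1.62 (1.58 to 1.65), 1.36 (1.33 to 1.39) and 1.70 (1.59 to 1.82) times 6 M WT. T or NK cell-like cells, with the highest level of heavy chain, had 0.366, 0.354 and 0.383, and 21 M B6 was at 1.05 (0.988 to 1.11) times 6 M WT. B2m per heavy chain was thus higher in 21 M B6 in 4 of these 5 classes, and in the other the interval includes 1. In 6 M DTR the value was 1.01 (0.986 to 1.04) times 6 M WT in epitenon-like and 1.10 (1.03 to 1.17) times in endothelial-like cells. It was 0.976 (0.957 to 0.995) times in macrophage-like and 0.966 (0.922 to 1.01) times in T or NK cell-like cells, so the classes did not share a direction. H2-K1 made up 22.6% (22.4 to 22.9), 17.7% (17.3 to 18.1) and 23.9% (23.1 to 24.7) of heavy chain UMIs in tenocyte-like cells, lowest in 6 M DTR. In T or NK cell-like cells of 6 M WT it made up 39.4% (38.1 to 40.8) and in endothelial-like cells 43.0% (41.2 to 44.8).

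**Figure D3:**
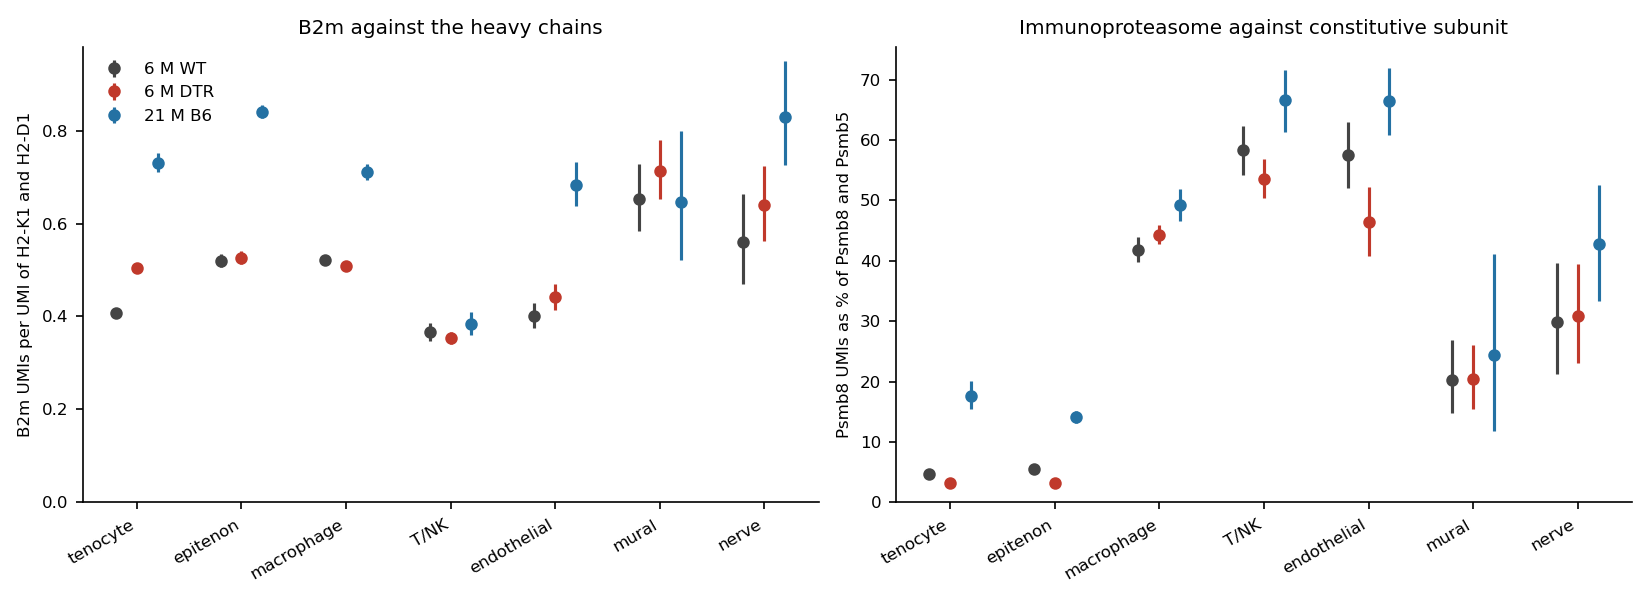
Left, B2m UMIs per UMI of H2-K1 and H2-D1; right, Psmb8 as a percentage of Psmb8 and Psmb5 UMIs, by cell class and library with exact 95% intervals for counting error. On the left 21 M B6 lies above 6 M WT in tenocyte-like (0.731 against 0.407), epitenon-like, macrophage-like and endothelial-like cells, and on the right tenocyte-like and epitenon-like cells lie at 17.7% or less in all 3 libraries.

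Each inducible subunit was then set against the constitutive subunit whose place it takes. In tenocyte-like cells Psmb8 made up 4.72% (4.32 to 5.14), 3.25% (2.76 to 3.80) and 17.7% (15.4 to 20.1) of Psmb8 and Psmb5 UMIs, lowest in 6 M DTR and highest in 21 M B6. The share was 5.46%, 3.23% and 14.1% in epitenon-like, 41.8%, 44.3% and 49.3% in macrophage-like, 57.6%, 46.4% and 66.6% in endothelial-like and 58.3%, 53.6% and 66.7% in T or NK cell-like cells. Both sides of the ratio differed in 21 M B6, since Psmb5 was lower in tenocyte-like cells, at 144 against 88.1 CPM, a ratio of 0.613 (0.571 to 0.656). Psmb9 made up 1.06% (0.899 to 1.24), 1.04% (0.801 to 1.33) and 3.20% (2.38 to 4.21) of Psmb9 and Psmb6 UMIs, with intervals of the first pair overlapping. Psmb10 made up 14.0% (13.2 to 14.8), 11.9% and 14.0% (11.8 to 16.4) of Psmb10 and Psmb7 UMIs, slightly lower in 6 M DTR than in 6 M WT. Within the transporter, Tap1 made up 33.6% (31.8 to 35.3), 23.8% (21.5 to 26.3) and 53.6% (49.4 to 57.7) of Tap1 and Tap2 UMIs, and the 3 intervals do not overlap.

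In macrophage-like cells at most 1 of the 10 genes was past 1.5-fold in either comparison. H2-K1 was at 750.5, 747 and 771 CPM and Psmb8 at 103, 119.9 and 95.9 CPM. None of the 10 genes was at least 1.5-fold lower in 6 M DTR (2.68% of genes). Only Nlrc5, 1 of the 10, was that much higher in 21 M B6, with a ratio of 1.94 (1.23 to 3.10) from 33 and 51 UMIs. So were 6.69% of genes with at least 20 CPM and 13.99% of those with at least 1 CPM. H2-D1 was lower in 21 M B6, at 1843 against 1493 CPM, a ratio of 0.810 (0.791 to 0.831), and B2m higher, with a ratio of 1.19 (1.16 to 1.22).

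Endothelial-like cells had Tap1 at 52.4, 31.6 and 67.6 CPM, with ratios to 6 M WT of 0.603 (0.404 to 0.895) for 6 M DTR and 1.29 (0.904 to 1.84) for 21 M B6. Psmb8 was at 148, 100.5 and 195 CPM, with ratios of 0.680 (0.543 to 0.851) and 1.32 (1.07 to 1.62). Both genes were lower in the former, but Tap1 was higher there in male cells alone, with a log2 ratio of 0.93. That value comes from 34 male cells of 6 M WT and 78 of 6 M DTR. The whole class held 66 and 45 Tap1 UMIs in these libraries. For 21 M B6 the interval for Tap1 includes 1. In 6 M DTR 2 of the 10 genes, Tap1 and Nlrc5, were at least 1.5-fold lower, the second with a ratio of 0.506 (0.184 to 1.29). So were 9.08% of genes with at least 20 CPM, a level Nlrc5 did not reach. Of genes with at least 1 CPM 19.9% were, which is near the share of the 10. Psmb9 was at least 1.5-fold higher in 21 M B6, with a ratio of 1.51 (0.954 to 2.41). It was the only 1 of the 10, where 8.07% of genes with at least 20 CPM and 22.5% of those with at least 1 CPM were. That count was 3 with TMM factors, which raise each log2 ratio of this comparison by 0.17, and lay between 0 and 3 over the alternatives. B2m was at 945, 989 and 1369 CPM, with ratios of 1.05 (0.968 to 1.13) and 1.45 (1.34 to 1.57). Red cell markers summed to 45.3, 2965 and 5337 CPM and the 7 mural markers to 206, 316 and 1116 CPM, the last being 18.1% of the mural-like level of 21 M B6. Muscle fibre markers summed to 16.7, 87.1 and 115 CPM and neutrophil markers to 18.3, 0 and 1.01 CPM. The part of these cells in the ratios was not tested. A Seurat cluster in which most cells were endothelial-like held 191, 184 and 204 cells, against 146, 147 and 105 gated ones. The gap was largest in 21 M B6.

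T or NK cell-like cells had none of the 10 genes past 1.5-fold in either comparison, where 4.53% of genes were that much lower and 5.53% higher in 6 M DTR, and 25.1% lower and 4.65% higher in 21 M B6. With a mitochondrial limit of 5%, 3 were past it in 21 M B6. H2-K1 was at 1518, 1482 and 1767 CPM and Psmb8 at 269, 188 and 264 CPM, the latter with ratios of 0.700 (0.609 to 0.806) and 0.984 (0.829 to 1.17). Nerve-like cells had Tap1 at 22.8, 50.3 and 94.0 CPM, from 11, 29 and 40 UMIs, and B2m at 439.7, 706 and 940.4 CPM. At least 1.5-fold higher in that class were 5 of the 10 genes in 6 M DTR and 6 in 21 M B6, all from 48 to 91 cells per library. Of genes with at least 20 CPM 10.4% and 9.76% were, and of those with at least 1 CPM 23.1% and 17.6%. Intervals were wide in nerve-like cells. The median lower and upper bounds of the 10 log2 ratios were -0.23 and 1.03 for 6 M DTR and 0.08 and 1.42 for 21 M B6. Red cell markers summed to 871, 8862 and 17915 CPM in T or NK cell-like and 64.3, 18567 and 5913 CPM in nerve-like cells, and their part was not tested. Mural-like cells had H2-K1 at 293, 265 and 301 CPM.

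Each pool held both sexes. Cells with Xist and no Y gene were called female and cells with Y genes and no Xist male, so each comparison could be made in different animals of the same pools. Of the tenocyte-like cells, 3171, 877 and 310 were called female and 1208, 1248 and 302 male. For 6 M DTR, H2-K1 had a ratio to 6 M WT of 0.643 (0.614 to 0.674) in female and 0.694 (0.660 to 0.729) in male cells, Tap1 one of 0.735 (0.601 to 0.893) in female and 0.574 (0.458 to 0.719) in male cells, and Psmb8 one of 0.484 (0.344 to 0.667) in female and 0.644 (0.467 to 0.883) in male cells. For 21 M B6, B2m had a ratio of 1.75 (1.68 to 1.81) in female and 1.66 (1.59 to 1.73) in male cells and Tap1 one of 2.18 (1.78 to 2.65) in female and 2.39 (1.89 to 3.00) in male cells. Psmb8 had 3.02 (2.36 to 3.83) in female and 2.28 (1.61 to 3.20) in male cells, and Nlrc5 3.78 (2.35 to 5.92) in female and 5.36 (2.45 to 12.0) in male cells. All of these went the same way in both sexes. They were picked for being past 1.5-fold over all cells, which include these cells, so this was partly set in advance. Both sexes also share library and digestion, so it is not a repeat. Of the tenocyte-like ratios within 1.5-fold, those of Psmb9 and Tap2 for 6 M DTR and Tap2 for 21 M B6 differed in direction. In 6 M DTR epitenon-like cells Psmb8 did not go the same way, with 0.401 (0.259 to 0.604) in female and 1.12 (0.655 to 1.96) in male cells. Neither did H2-K1 there, with 0.800 (0.743 to 0.862) in female and 1.09 (0.997 to 1.19) in male cells. In 21 M B6 epitenon-like cells Psmb8 was higher in both, with 1.54 (1.24 to 1.92) in female and 4.18 (2.70 to 6.78) in male cells, and these intervals do not overlap.

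**Figure D4:**
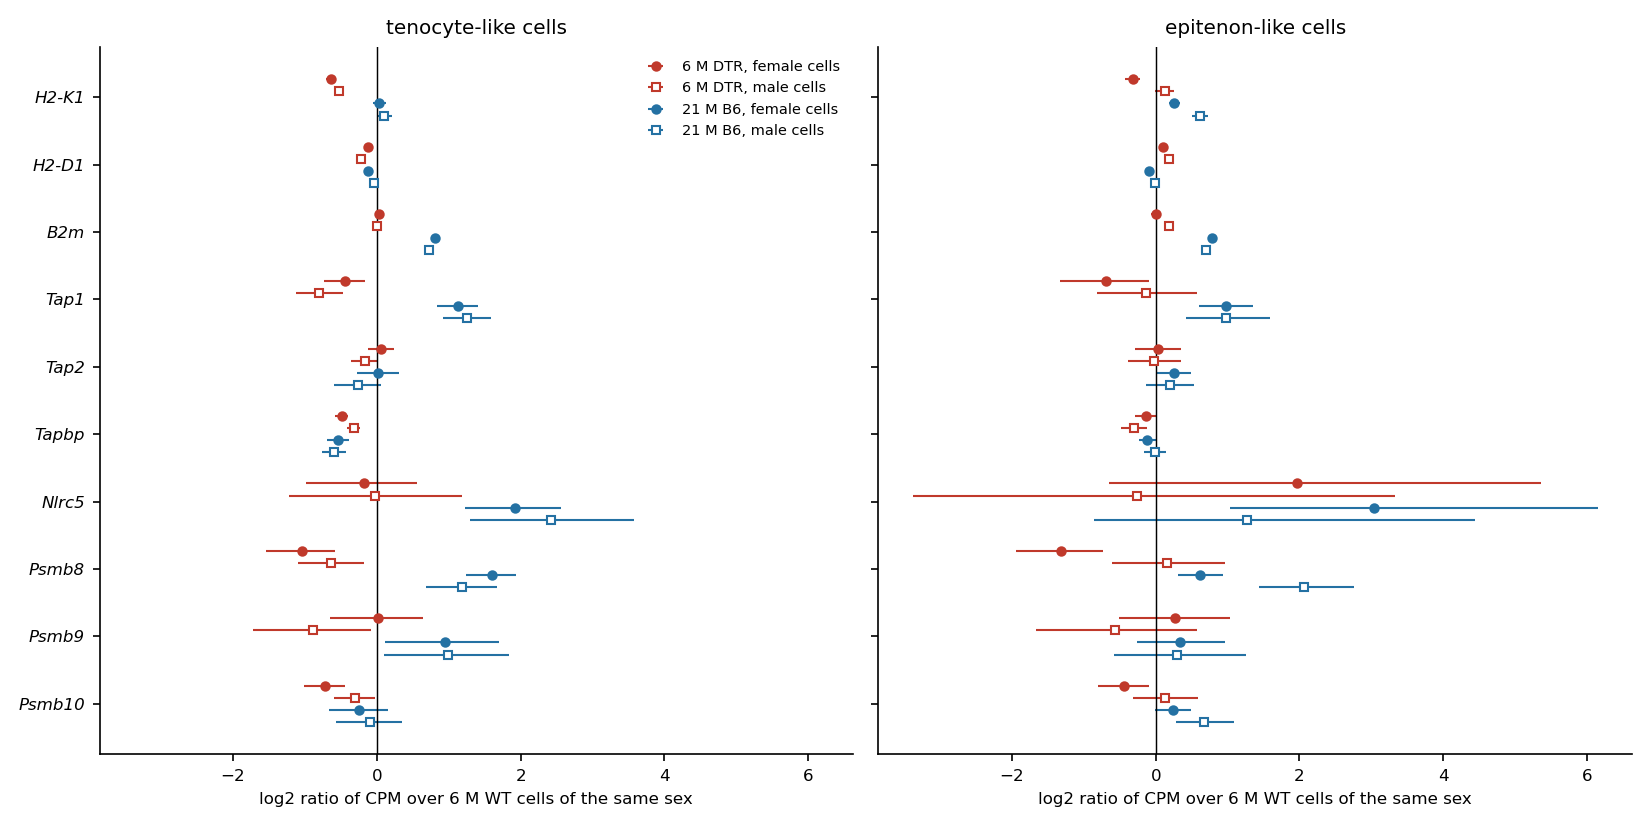
Log2 ratio of CPM to 6 M WT cells of the same sex for each gene, in tenocyte-like (left) and epitenon-like cells (right); filled circles are cells called female, open squares cells called male, and bars are exact 95% intervals for counting error. B2m and Tap1 of 21 M B6 lie right of 0 in both sexes and classes, and Psmb8 of 6 M DTR epitenon-like cells lies left of 0 in female and near 0 in male cells.

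Other genes of the pathway were counted by list among those with at least 20 CPM in either library, with the shares of all genes given above as background. A gene can pass through its level in a single library, which favours genes that differ, here and in the background. Of 25 other class I heavy chain and class I-like genes, 4 reached 20 CPM in tenocyte-like cells. In 6 M DTR 1 of these, H2-Q4, was at least 1.5-fold lower and 1, H2-T23, as much higher, with a list median of 0.25 log2. In 21 M B6 1, H2-Q4, was higher and none lower, with a list median of 0.28 log2. H2-Q4, a non-classical heavy chain, was at 80.9, 33.7 and 132 CPM, with ratios of 0.416 (0.391 to 0.443) for 6 M DTR and 1.63 (1.54 to 1.74) for 21 M B6. Its distance from 6 M WT was larger than that of H2-K1 and H2-D1 both times. H2-T23, which encodes Qa-1, a ligand of an inhibitory NK cell receptor, was at 40.7, 68.3 and 57.1 CPM. H2-Q6 and H2-Q7 were at 1.29 CPM or less in tenocyte-like cells of all 3 libraries, and at 67.9 and 270.1 CPM in T or NK cell-like cells of 6 M WT.

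In tenocyte-like cells the constitutive machinery stayed within 1.5-fold with few exceptions. None of the 3 constitutive catalytic subunits and none of 11 other core proteasome subunits was at least 1.5-fold lower in 6 M DTR tenocyte-like cells, with list medians of -0.29 and -0.22 log2. Of the 3 subunits 1, Psmb5, and none of the 11 was in 21 M B6 tenocyte-like cells (12.5% of genes), with list medians of -0.50 and -0.48. Of 5 proteasome activator and assembly genes, 1, Psme3, was at least 1.5-fold lower in 6 M DTR, at 30.6 against 19.9 CPM. Of the peptide loading list 3 of 5 genes reached 20 CPM. The chaperones Calr and Canx were at 385, 357 and 374 CPM and 249, 264 and 187 CPM, and Pdia3, a partner of tapasin, at 407, 430.3 and 266 CPM. Of these 3 only Pdia3 was at least 1.5-fold lower in 21 M B6, where Tapbp was lower by just less than that. In endothelial-like cells of 21 M B6, 3 of the 5, Canx, Pdia3 and Erap1, were at least 1.5-fold lower (24.2% of genes), with a list median of -0.62 log2.

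Among 14 regulators of the class I promoter, 2 of the 9 at 20 CPM were at least 1.5-fold lower in 6 M DTR tenocyte-like cells and none higher. These were the NF-kB subunit genes Nfkb1, at 282 against 177 CPM, and Rela, at 169 against 101 CPM. For 21 M B6, 2 of 9 were higher and none lower. Irf1, whose product binds the interferon response motif, was at 149, 217 and 337 CPM, so that it was also higher in 6 M DTR, though by less than 1.5-fold. Stat2, whose product carries the interferon signal, was at 20.6, 15.3 and 67.4 CPM. In epitenon-like cells Irf1 was at 97.9, 93.5 and 190.4 CPM and Stat2 at 12.4, 8.93 and 34.5 CPM. None of the 4 interferon genes listed reached 20 CPM in these classes, and Ifng was at 2.34, 12.8 and 0 CPM in T or NK cell-like cells. The first value is what 3 UMIs give in these 124 cells, and the 0 comes from 82 cells. No difference between libraries is read from them. Of 7 interferon receptors and kinases, 6 reached 20 CPM in the comparison of 21 M B6 tenocyte-like cells. Of these 1, Ifngr2, was at least 1.5-fold lower, at 46.4 against 26.2 CPM, where 12.5% of genes were. That count does not set the list apart from all genes.

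Interferon-induced genes outside the pathway included larger differences. In 6 M DTR tenocyte-like cells 5 of 15 reached 20 CPM and all 5 were at least 1.5-fold lower (6.12% of genes), with a list median of -1.37 log2. All 5 reached that level in 6 M WT, where they were higher, so the minimum level partly sets this count and median. Of these, Gbp2, Gbp6 and Irgm1 also reached it in 6 M DTR. The guanylate-binding protein genes Gbp6 and Gbp2 were at 188, 36.5 and 196 CPM and 239.6, 78.6 and 209 CPM, lower in 6 M DTR with ratios of 0.194 (0.183 to 0.206) and 0.328 (0.315 to 0.341) and near 6 M WT in 21 M B6. In 21 M B6 tenocyte-like cells 6 of the 9 at 20 CPM were higher (6.5% of genes) and none lower, with a list median of 0.85 log2. Of the 6, Gbp7, Igtp, Ifit1 and Cxcl9 were under 20 CPM in 6 M WT and entered the count through 21 M B6. The count and the median are thus partly set by that minimum level. Irgm1, an interferon-induced GTPase, was at 44.4, 20.2 and 159 CPM, and Ifit1, which binds viral RNA, at 16.7, 3.23 and 46.7 CPM. Both were thus lower in 6 M DTR and higher in 21 M B6. In 21 M B6 epitenon-like cells 6 of 7 were higher (4.31% of genes), with Irgm1 at 10.9 against 83.4 CPM, a ratio of 7.63 (6.58 to 8.88). Of the 6, all but Gbp2 were under 20 CPM in 6 M WT and entered the count through 21 M B6. That minimum level thus largely sets this count, and nothing is read from it. By sex, Irgm1 in 21 M B6 had ratios of 3.12 (2.86 to 3.41) in female and 5.44 (4.81 to 6.15) in male cells in the tenocyte-like class, and of 7.54 (6.27 to 9.13) in female and 8.65 (6.48 to 11.8) in male cells in the epitenon-like class. Endothelial-like cells of 21 M B6 had 10 of 15 at least 1.5-fold higher. So were 8.07% of genes with at least 20 CPM and 22.5% of those with at least 1 CPM. Among the 10 was Isg15, at 243 against 1112 CPM. Among the 6 class II genes of macrophage-like cells, 5 were at least 1.5-fold higher in 6 M DTR (1.91% of genes) and 6 in 21 M B6, with H2-Aa at 413, 662 and 1209 CPM.

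**Figure D5:**
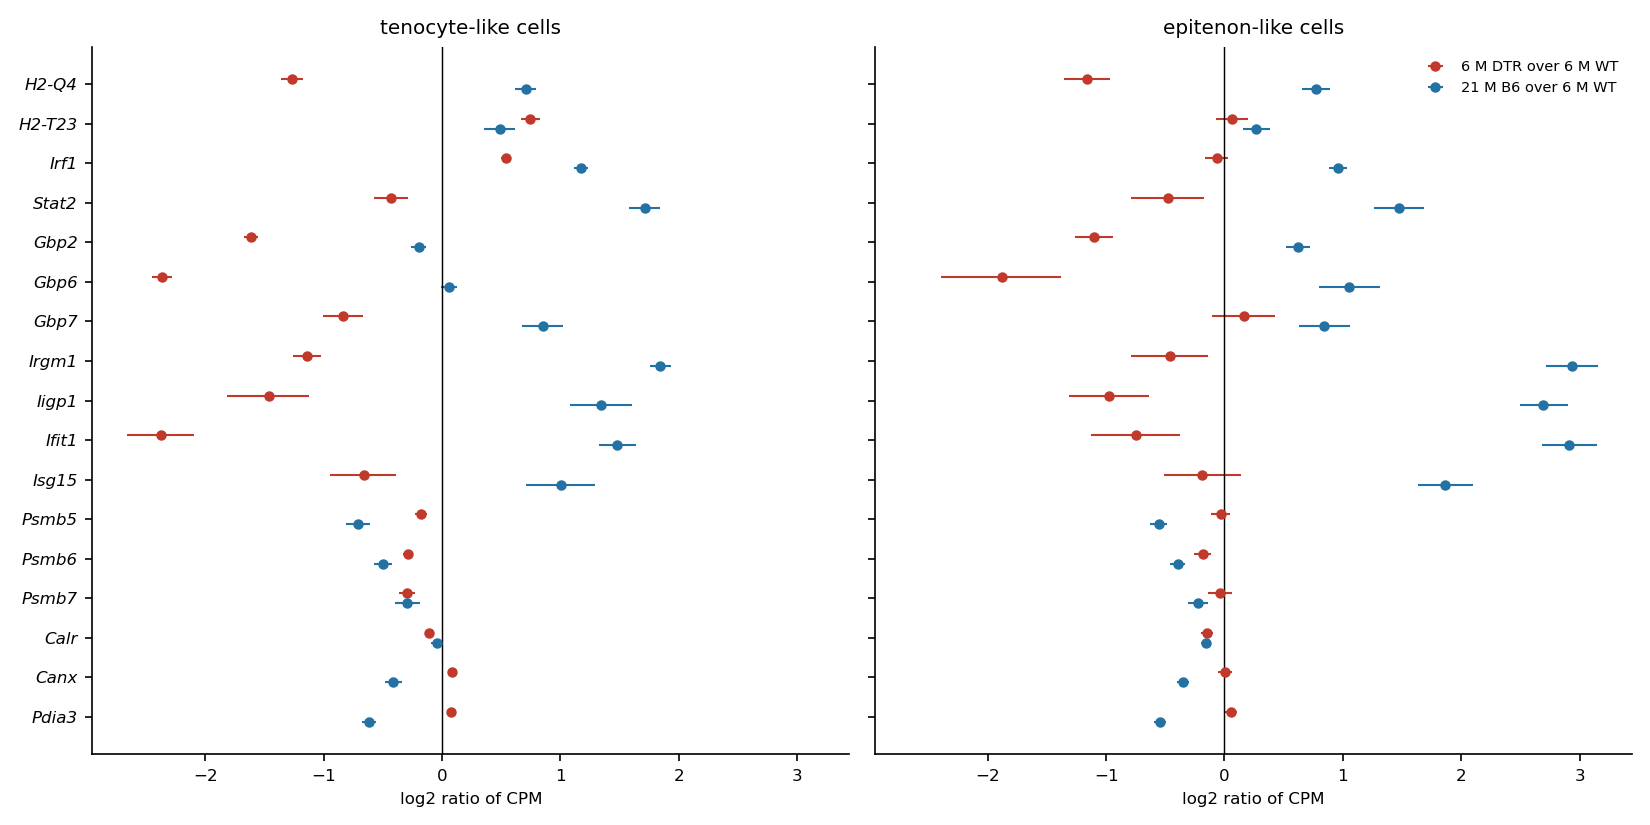
Log2 ratio of CPM to 6 M WT for 17 other genes of the pathway and its regulation in tenocyte-like (left) and epitenon-like cells (right), with exact 95% intervals for counting error. In tenocyte-like cells Gbp2, Gbp6, Irgm1 and Ifit1 lie left of 0 for 6 M DTR, and Stat2, Irgm1 and Ifit1 lie right of 0 for 21 M B6.

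Over the 21 combinations of class and library with at least 50 cells, Psmb8, Psmb9 and H2-K1 followed the mean of the other 9 genes most closely, on scaled log2(CPM + 1) values, with Pearson's r of 0.94, 0.94 and 0.93, and Tapbp least, with 0.58. These combinations share libraries, so the values are a description. Of 6324 other genes with at least 50 CPM in 1 combination or more, the 10 whose pattern was most like the mean of the members were S1pr1 (r of 0.94), Cd274 (0.92), H2-Q6 (0.91), Ctla2b (0.90), Arhgap31 (0.90), Dennd4a (0.89), Ppp1r18 (0.88), H2-T23 (0.88), Cyth1 (0.87) and Psme1 (0.87). H2-Q6 and H2-T23 are class I genes, and Psme1 encodes a subunit of the proteasome activator PA28. Cd274, which encodes the checkpoint ligand PD-L1, had its highest level in endothelial-like cells of 21 M B6, at 115 CPM, and was at 4.15 CPM in 6 M WT tenocyte-like cells.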

How the data were processed

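Counts of UMIs per gene and cell were used as deposited, in 1 matrix per library. The authors dissociated pooled FDL tendons, made 10x Genomics Chromium 3' libraries and counted with Cell Ranger. The file headers name version 6.0.1 and the submitters' processing notes version 2.1.1. The genome build and annotation of the counts were not given in the sources used here. The matrices held 15536, 16099 and 12273 barcodes and 148149903, 123918145 and 92707026 counts (6 M WT first, 21 M B6 last), which sets the precision of each level.

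Cells were limited to 1000 to 5000 genes and 10% mitochondrial counts. Classes were gated on the number of markers with a UMI: at least 6 of 10 for tenocyte, 3 of 9 for epitenon, 4 of 8 for macrophage, 4 of 10 for T or NK cell and for endothelial, 3 of 7 for mural, 3 of 8 for nerve and 2 of 5 for muscle satellite, with upper limits on tenocyte and epitenon markers. Counts were summed per class and library and scaled to CPM. Intervals were exact: Poisson for levels, conditional binomial for ratios and Clopper-Pearson for shares. That of a ratio of B2m ratios was the normal interval of its logarithm. The members, lists, gates and comparisons were chosen with earlier results of these data known. All 10 members and the 10 genes of most similar pattern were named by rule, and the other genes as examples of their lists after their values were seen. H2-Ke6 was dropped from its list because it is not a class I gene. Another listed gene is not reported here.

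Scrublet (scanpy 1.11.5) at its default threshold called 1, 6 and 1 cells as doublets, which is too few to rely on. Cells passing several gates were left out, apart from cells of other classes with just 3 epitenon markers. An alternative without the 5% highest Scrublet scores was added after seeing the data, as was the background at 1 CPM. Other alternatives were Seurat 5.3.0 clusters (20 dimensions, resolution 0.3) in place of gates, stricter gates, mitochondrial limits of 5% and 20%, no upper limit on genes, cells of a single sex, TMM factors (edgeR 4.0.16), totals without mitochondrial and the 50 most counted genes, means of per-cell CPM, and other folds and minimum levels. The calculations were tested on simulated Poisson and binomial counts. These hold no added spread between cells or libraries, so the test cannot show how well the intervals suit the real cells.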

Additional observations from a re-analysis of the deposited data

How the results depend on the processing

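Of 177 recomputed values that answer a comparison, 159 stayed within the counting interval of the reported value, or within 1.5 times for a count, and 18 did not. TMM factors gave a median log2 ratio of 0.62 for tenocyte-like and 0.63 for epitenon-like cells of 21 M B6, and 0.96 for T or NK cell-like over tenocyte-like cells. Totals without mitochondrial and the 50 most counted genes gave 1.25 for the last and 1.21 for macrophage-like over tenocyte-like cells. Male cells alone gave 0.65 for epitenon-like cells of 21 M B6 and 1.28 for T or NK cell-like over tenocyte-like cells. At 2-fold in place of 1.5-fold, 0 of the 10 genes were lower in 6 M DTR tenocyte-like cells, 0 in its epitenon-like cells, and 2 were higher in 21 M B6 epitenon-like cells. In 6 M DTR epitenon-like cells 2 genes were at least 1.5-fold lower in female and 0 in male cells, and the median of the 10, -0.19 as reported, was 0.05 in male cells. B2m per heavy chain UMI in tenocyte-like cells, as a log2 ratio to 6 M WT, was 0.31 as reported for 6 M DTR, 0.27 with Seurat clusters, 0.26 in female and 0.29 in male cells. For 21 M B6 it was 0.84 as reported, 0.78 with a mitochondrial limit of 5%, 0.89 in female and 0.74 in male cells. Of 42 log2 ratios of single genes reported past 1.5-fold, 3 changed sign, all in male cells of 6 M DTR: Nlrc5 (-0.26) and Psmb8 (0.16) in epitenon-like cells and Tap1 (0.93) in endothelial-like cells. Of the 88 reported within 1.5-fold, 43 changed sign under at least 1 alternative, among them, for 6 M DTR, H2-K1 (0.12) and Psmb10 (0.13) in male and Psmb9 (0.27) in female epitenon-like cells and Psmb9 (0.02) in female tenocyte-like cells. The cause was not tested. No paired analysis was possible because each group holds 1 library, and for the same reason no library could be left out. The default Scrublet calls were not run as an alternative. Of the recomputed values beyond the 177, 1392 stayed, 281 moved and 3 were classed as reversed. Depth limits Nlrc5 most, with 6 UMIs in 6 M WT epitenon-like cells.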
